A study of Mus musculus with 8 samples.

Results

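The 10 genes described here encode interferon-inducible GTPases: 5 guanylate-binding proteins (GBPs), Gbp2, Gbp3, Gbp5, Gbp6 and Gbp7, and 5 immunity-related GTPases (IRGs), Igtp, Irgm1, Irgm2, Iigp1 and Tgtp1. They were chosen by the gene name that the scanner files give to a non-control probe. The names cover 15 of the 55681 non-control probes on the array, and 14 of those 15 passed the filter on dim probes, so that each of the 10 genes had a value among the 23985 genes tested. All 14 probes were well above background on all 8 arrays.

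Liver RNA from bl6 mice was hybridised to 8 one-colour Agilent arrays, 4 labelled AdLeXis and 4 labelled AdGFP. LeXis is a long non-coding RNA of mouse liver whose gene neighbours Abca1, a cholesterol exporter, and AdGFP is the control vector, which carries green fluorescent protein. The promoter of the inserts is not given in the sources used here. Mice of both groups were 12 weeks old, ate chow, received an adenovirus and gave RNA on day 6. No uninfected liver is in the series, so every value below compares one adenovirus with another. The comparison asks which liver transcripts differ when LeXis is raised. The free-text treatment field speaks instead of pblockIT vectors, 1 of them directed at Raly. The titles, treatment tags and series design all name AdGFP and AdLeXis, and the tags set the groups here. Nothing in the labels states that samples are different animals, and p-values therefore cover only the variation among these 8 samples, some of which may be technical.

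GBPs and IRGs are among the proteins most strongly induced by interferon gamma in mouse cells, and type I interferon induces many of them too. GBPs gather on vacuoles and on bacteria in the cytosol and promote activation of caspase-11 and of inflammasomes. The effector IRGs, such as Iigp1 and Tgtp1, load onto the vacuole of Toxoplasma and break it, while the regulatory IRGs Irgm1, Irgm2 and Igtp (Irgm3) sit on the membranes of the cell and hold the effectors inactive there. The promoters of such genes carry gamma-activated sites (GAS), through which interferon gamma acts, and interferon-stimulated response elements (ISRE), which IRF factors bind.

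The sequences upstream of the members are shown because the genes moved together in these livers, as given below. RefSeq's promoter table (GRCm38.p6) held a window for 8 of the 10 members. Gbp6 and Iigp1 had none. Windows of 250 bases before the start of the gene were searched for TTCNNNGAA, the core of a GAS, in which N is any base. They were also searched for an ISRE-like pair of repeats, GAAA followed after 2 bases of any kind by a second GAAA, or on the other strand TTTC followed after 2 bases by a second TTTC. The GAS core reads the same on both strands, and neighbouring matches may overlap. The 170 bases next to the start are printed 5′ to 3′ on the strand of the gene, with matches in capitals. Igtp lies on the plus strand (chr11:58199386-58199555), Irgm2 on the plus strand (chr11:58214807-58214976) and Tgtp1 on the minus strand (chr11:48992247-48992416). These 3 windows hold both patterns in the same arrangement.
Igtp: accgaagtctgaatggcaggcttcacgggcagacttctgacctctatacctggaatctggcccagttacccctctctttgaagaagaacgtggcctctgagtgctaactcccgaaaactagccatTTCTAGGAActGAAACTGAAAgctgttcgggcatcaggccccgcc
Irgm2: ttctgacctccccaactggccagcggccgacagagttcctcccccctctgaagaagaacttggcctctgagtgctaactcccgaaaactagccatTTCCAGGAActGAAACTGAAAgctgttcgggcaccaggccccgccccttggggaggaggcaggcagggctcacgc
Tgtp1: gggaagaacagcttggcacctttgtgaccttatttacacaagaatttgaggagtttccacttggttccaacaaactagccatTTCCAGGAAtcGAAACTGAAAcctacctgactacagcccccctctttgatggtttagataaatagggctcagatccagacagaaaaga
Gbp5 and Gbp7, both on the plus strand (chr3:142496764-142496933 and chr3:142530166-142530335), hold both patterns farther apart.
Gbp5: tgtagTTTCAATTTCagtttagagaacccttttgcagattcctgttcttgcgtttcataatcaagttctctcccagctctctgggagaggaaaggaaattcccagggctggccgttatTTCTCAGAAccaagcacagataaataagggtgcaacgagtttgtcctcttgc
Gbp7: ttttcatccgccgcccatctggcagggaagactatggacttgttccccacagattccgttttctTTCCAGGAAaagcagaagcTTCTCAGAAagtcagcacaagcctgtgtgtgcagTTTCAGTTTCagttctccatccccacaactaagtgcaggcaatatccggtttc
Gbp2 and Irgm1, on the plus and minus strand (chr3:142620493-142620662 and chr11:48871421-48871590), hold the ISRE-like pattern without the GAS core.
Gbp2: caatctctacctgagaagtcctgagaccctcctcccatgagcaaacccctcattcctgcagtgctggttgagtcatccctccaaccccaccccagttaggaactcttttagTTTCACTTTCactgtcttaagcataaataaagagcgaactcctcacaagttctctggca
Irgm1: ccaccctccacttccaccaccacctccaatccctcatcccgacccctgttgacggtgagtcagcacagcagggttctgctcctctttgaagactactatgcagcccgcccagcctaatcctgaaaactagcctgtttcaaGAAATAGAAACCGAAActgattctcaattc

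The ISRE-like pattern was found in the window of 8 of 8 members with a window, and in 2.98% of all 32851 windows. The GAS core was found in 5 of the 8, Gbp5, Gbp7, Igtp, Irgm2 and Tgtp1, and in 7.02% of all windows. Both patterns stood in 5 of the 8 member windows and in 0.332% of all windows. Of 9 other interferon-inducible GTPases with a window, 4 held the ISRE-like pattern and 3 of those the GAS core as well. Ifi47, an IRG that fell by 1.22 (SE 0.22, adjusted p = 0.00866), held neither. Gbp3 had 2 windows, of which 1 held the ISRE-like pattern (on the plus strand) and no GAS core. In Igtp, Irgm2 and Tgtp1 the GAS core was followed by a gap of 2 bases and then by the ISRE-like pattern, and this order was seen in 5 windows of 32851 (0.0152%). The other windows with it were those of Tgtp2 and Gm12185, which are IRG genes of the same chromosome, so all 5 belong to this gene family. That arrangement was chosen after the sequences were seen. Gm12185 did not pass (log2 difference 0.25, SE 0.43, adjusted p = 0.744 over all kept probes). It was well above background on 2 AdGFP and 4 AdLeXis arrays. Tgtp2 passed with its brighter probe (-0.999, SE 0.15, adjusted p = 0.00536 over all kept probes), which also lists a transcript of Tgtp1. Of the 3 members with the arrangement, Igtp passed the test between groups, and Irgm2 and Tgtp1 did not. The printed windows of Igtp and Irgm2, which are neighbours, shared an unbroken run of 38 bases, and Irgm2 and Tgtp1 shared a run of 20. A match describes letters only. Binding was not measured.

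Of the hepatocyte markers, 12 of 12 were well above background on all 8 arrays, as for liver. AdLeXis arrays were brighter before scaling, with a 75th percentile of intensity of 381 to 448, against 220 to 297 on AdGFP arrays. The correlation between arrays was 0.991 to 0.994 within a group and 0.981 to 0.989 across groups. The 3 probes named for the reverse strand of the LeXis region (mm9 chr4:53217935-53230433) read 0.78 to 2.58 on average on AdGFP arrays and 9.70 to 10.49 on AdLeXis arrays, all on the log2 scale, which fits the labels. All arrays came from 1 slide and 1 scan, with AdGFP in row 1 of the slide and AdLeXis in row 2, so slide row and group cannot be told apart. Of the 23985 genes, 4200 (17.5%) passed an adjusted p of 0.05 in either direction, 2104 (8.77%) lower and 2096 (8.74%) higher in AdLeXis. Scaling by the median instead of the 75th percentile made the split 2683 lower and 1158 higher.

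The interferon-inducible GTPases were lower in AdLeXis livers. Of the 10 members, 8 fell, 0 rose and 2, Irgm2 and Tgtp1, lay lower without passing the test. At an unadjusted p of 0.05 in limma, all 10 were lower and 0 higher. More genes pass without adjustment than with it. The share of all genes at the unadjusted threshold is not given, here or for the lists below. The median log2 difference of the 10 was -1.11, against -0.00 over all genes tested. The members that fell kept 41.3% (Gbp3) to 56.3% (Iigp1) of their AdGFP signal. For the same 8 genes, every AdLeXis array lay below every AdGFP array, an arrangement seen in 12.3% of all genes. All 5 GBPs fell, with a median of -1.20, and 3 of 5 IRGs fell, with a median of -0.83 over the 5. Whether the families differ in the size of their fall was not tested. Liver is a mixture of cells, and fewer cells of a type and less RNA per cell cannot be told apart in these values.

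**Figure D1:**
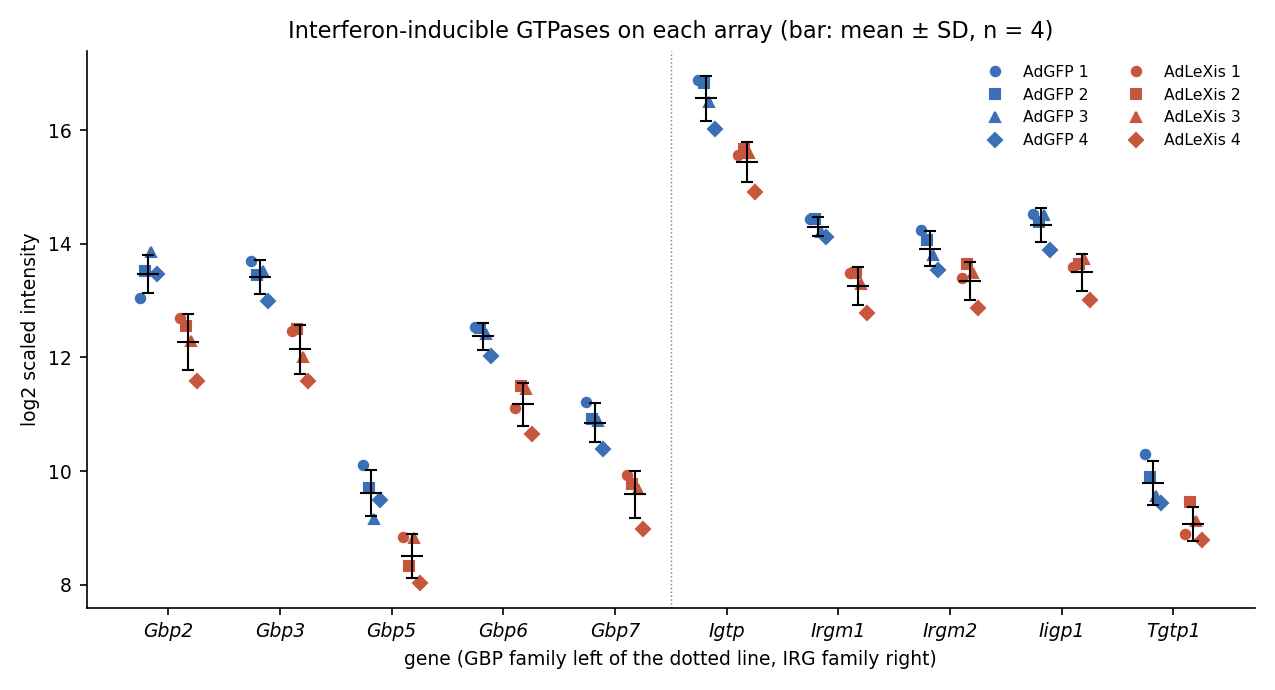
Log2 scaled intensity (vertical axis) of the 10 members on each of the 8 arrays. Marker shapes give the replicate number, blue is AdGFP, red is AdLeXis, and black bars are the mean ± SD of 4 arrays. The groups do not overlap for the 5 GBPs, Igtp, Irgm1 and Iigp1, they overlap for Irgm2 and Tgtp1, and AdLeXis 4 is the lowest red point for every gene. Heights of different genes are signals of different probes and are not comparable.

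Values below are log2 scaled intensities of 1 probe per gene, listed in the order of replicates 1 to 4. Gbp2, which coats the Toxoplasma vacuole, read 13.05, 13.52, 13.86 and 13.47 on the AdGFP arrays and 12.69, 12.55, 12.29 and 11.58 on the AdLeXis arrays. The groups did not overlap, and AdGFP 1, the lowest of its group, lay 0.36 above the highest AdLeXis array. Gbp2 fell by 1.20 (SE 0.26), which is 2.29-fold (95% confidence interval 1.52 to 3.45, adjusted p = 0.0170).

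Gbp3, which lies between Gbp7 and Gbp2 on chromosome 3, read 13.69, 13.45, 13.53 and 12.99 on AdGFP and 12.46, 12.51, 12.01 and 11.59 on AdLeXis arrays. The lowest AdGFP array thus stayed above the highest AdLeXis array. With 2.42-fold it was the largest fall of the 10 (log2 difference -1.27, SE 0.23, adjusted p = 0.00883).

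Gbp5, known for promoting assembly of the NLRP3 inflammasome, read 10.11, 9.69, 9.15 and 9.49 on AdGFP arrays with its brighter probe. On AdLeXis arrays the same probe read 8.83, 8.33, 8.83 and 8.04. The groups did not overlap, and the difference was -1.10 (SE 0.25, 2.15-fold, adjusted p = 0.0187). The other Gbp5 probe, however, averaged 8.61 ± 0.10 (SD, n = 4) on AdGFP and 8.57 ± 0.15 (SD, n = 4) on AdLeXis arrays. Its difference was -0.03 (SE 0.10, adjusted p = 0.860 over all kept probes), so the fall of Gbp5 rests on 1 of its 2 probes. The files list 1 cDNA for both probes, and the RefSeq transcript of Gbp5 only for the probe that fell.

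Gbp6 lies in the GBP cluster of chromosome 5, apart from the other 4. It read 12.53, 12.51, 12.41 and 12.02 on AdGFP and 11.10, 11.49, 11.43 and 10.66 on AdLeXis arrays, with no overlap. The fall was 2.29-fold (log2 difference -1.20, SE 0.20, adjusted p = 0.00666). That probe also lists a transcript of Gbp10, a near-identical copy, so its signal cannot be assigned to Gbp6 alone. The second Gbp6 probe lists no transcript of Gbp10 among the accessions the files give. It fell by 1.15 (SE 0.18, adjusted p = 0.00561 over all kept probes).

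Gbp7, known for helping to assemble the NADPH oxidase on phagosomes, read 11.22, 10.91, 10.89 and 10.39 on AdGFP arrays. On AdLeXis arrays it read 9.93, 9.76, 9.68 and 8.98. The groups were apart, and the fall was 2.40-fold (log2 difference -1.26, SE 0.24, adjusted p = 0.0100). Its second probe was not well above background on any array (0 of 8) and was left out.

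Among the regulatory IRGs, Igtp read 16.88, 16.83, 16.49 and 16.03 on AdGFP and 15.56, 15.67, 15.59 and 14.91 on AdLeXis arrays. No array of one group reached the other, and the fall was 2.18-fold (log2 difference -1.12, SE 0.23, adjusted p = 0.0142). Igtp had the most spots of the members, because its probe was printed 10 times on each array. The SD between those spots was 0.05 to 0.11 on 7 of the arrays, well under the difference between groups. On AdGFP 4 it was 0.41, as 1 spot read 14.89 and the highest 16.27. With the median of the spots in place of their mean, an alternative chosen after that spot was seen, the difference was -1.16 (adjusted p = 0.0108).

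Irgm1, which controls mycobacteria and is linked to autophagy, read 14.44, 14.44, 14.21 and 14.11 on AdGFP arrays. On AdLeXis arrays it read 13.48, 13.49, 13.29 and 12.79. It had the smallest spread of the 10 among AdGFP arrays (SD 0.17) and the lowest adjusted p of the members (0.00577), with a 2.05-fold fall (log2 difference -1.04, SE 0.17). A second Irgm1 probe fell by 1.07 (SE 0.16, adjusted p = 0.00474 over all kept probes).

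Irgm2 read 14.24, 14.07, 13.81 and 13.54 on AdGFP and 13.40, 13.63, 13.49 and 12.87 on AdLeXis arrays. AdGFP 4 lay below AdLeXis 2, so the groups overlapped. The log2 difference of -0.57 (SE 0.20, 95% confidence interval -1.03 to -0.11) did not pass (adjusted p = 0.0898). Igtp and Irgm2 are neighbours on chromosome 11 with the near-identical upstream run printed above. The log2 ratio of Igtp to Irgm2 within an array was 2.64, 2.77, 2.68 and 2.49 on AdGFP and 2.16, 2.03, 2.11 and 2.04 on AdLeXis arrays. It was lower on all 4 AdLeXis arrays than on any AdGFP array, so the pair changed unequally. The pair was chosen after its values were seen, and no test is given.

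The effector Iigp1 (Irga6), which lies on chromosome 18, read 14.53, 14.38, 14.51 and 13.88 on AdGFP arrays. On AdLeXis arrays it read 13.60, 13.64, 13.74 and 13.01, a fall of 1.78-fold (log2 difference -0.83, SE 0.20, adjusted p = 0.0248). AdGFP 4, the lowest of its group, lay 0.15 above AdLeXis 3, the highest of the other. A second Iigp1 probe fell by 0.77 (SE 0.21, adjusted p = 0.0445 over all kept probes). The call of Iigp1 was lost without AdGFP 1 (adjusted p = 0.0652), without AdGFP 2 (0.0588), without AdGFP 3 (0.0609) and with no filter on dim probes (0.0511).

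The effector Tgtp1 (Irgb6) read 10.30, 9.89, 9.55 and 9.43 on AdGFP and 8.89, 9.46, 9.12 and 8.79 on AdLeXis arrays. AdLeXis 2 lay just above AdGFP 4. The log2 difference of -0.73 (SE 0.22, 95% confidence interval -1.22 to -0.23) narrowly missed the threshold (adjusted p = 0.0519). The probe lists transcripts of both Tgtp1 and the near-identical Tgtp2, as do both probes named for Tgtp2. The brighter of those differed by -0.999 (SE 0.15, adjusted p = 0.00536 over all kept probes) and the other by -0.81 (SE 0.25, adjusted p = 0.0640), so that 1 of the 3 probes of this pair passed. The values of Tgtp1 and Tgtp2 cannot be told apart here.

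**Figure D2:**
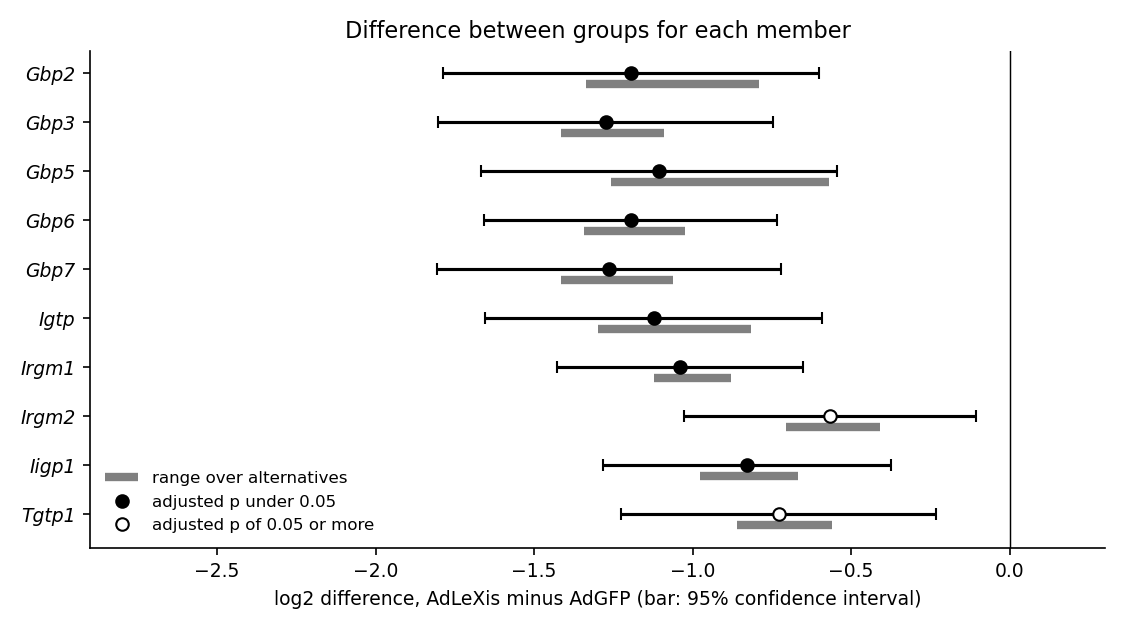
Log2 difference between AdLeXis and AdGFP (horizontal axis) for each member, with its 95% confidence interval as a black bar. Filled points passed an adjusted p of 0.05. The grey bar is the range of the difference over 19 alternative settings, which stays below 0 for all 10 genes. Its end lies nearest to 0 for Irgm2 (-0.41). It reaches farthest from the plotted point toward 0 for Gbp5 (to -0.57).

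In mm9 coordinates, the probes of Gbp5 (chr3:142184779-142184838), Gbp7 (chr3:142209379-142209438), Gbp3 (chr3:142236032-142236091) and Gbp2 (chr3:142300719-142300778) follow each other on chromosome 3. The probe of Gbp6 lies at chr5:105702128-105702187. Irgm1 (chr11:48679069-48679128) and Tgtp1 (chr11:48799587-48799646) form one IRG group on chromosome 11, and Igtp (chr11:58020927-58020986) and Irgm2 (chr11:58036093-58036152) another. Which exon or untranslated region each probe lies in was not analysed here. The members lie in 5 places, on chromosome 3, on chromosome 5, at both sites on chromosome 11 and on chromosome 18, and the nearest tested protein-coding gene outside the families was taken on each side of each. Of these 10 flanking genes, 1 fell, 1 rose and 8 did not pass, with a median log2 difference of 0.04. These counts were near the share over all genes, of which 8.77% fell and 8.74% rose. Abcg3, beside the chromosome 5 cluster, fell by 0.41 (SE 0.12, adjusted p = 0.0439), and Trim7, beside Irgm1 and Tgtp1, rose by 0.66 (SE 0.15, adjusted p = 0.0182). Pdlim5 and Kyat3, which flank the GBPs of chromosome 3, had differences of 0.03 (SE 0.13) and 0.15 (SE 0.22).

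The members shared some of the extreme arrays within a group. AdLeXis 4 was the lowest AdLeXis array for 10 of 10 members, and for 24.8% of all genes. Among AdGFP arrays, AdGFP 4 was the lowest for 8 of 10 members (26.2% of all genes) and AdGFP 1 the highest for 9 of 10 (21.3%). Gbp2 was the exception, lowest on AdGFP 1 and highest on AdGFP 3. The lowest AdGFP array of Gbp5 was AdGFP 3. The highest AdLeXis array was less uniform: AdLeXis 2 for 6 members, AdLeXis 1 for 3 and AdLeXis 3 for 1. Averaged over the 5 GBPs, AdLeXis 4 lay 0.57 below the mean of its group, and over the 5 IRGs 0.45 below. Without AdLeXis 4, the difference between groups in the mean of the list was -1.02 for the GBPs and -0.71 for the IRGs, against -1.21 and -0.86 with it. Without that array 8 members passed, all of them among the 8 that passed with it.

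**Figure D3:**
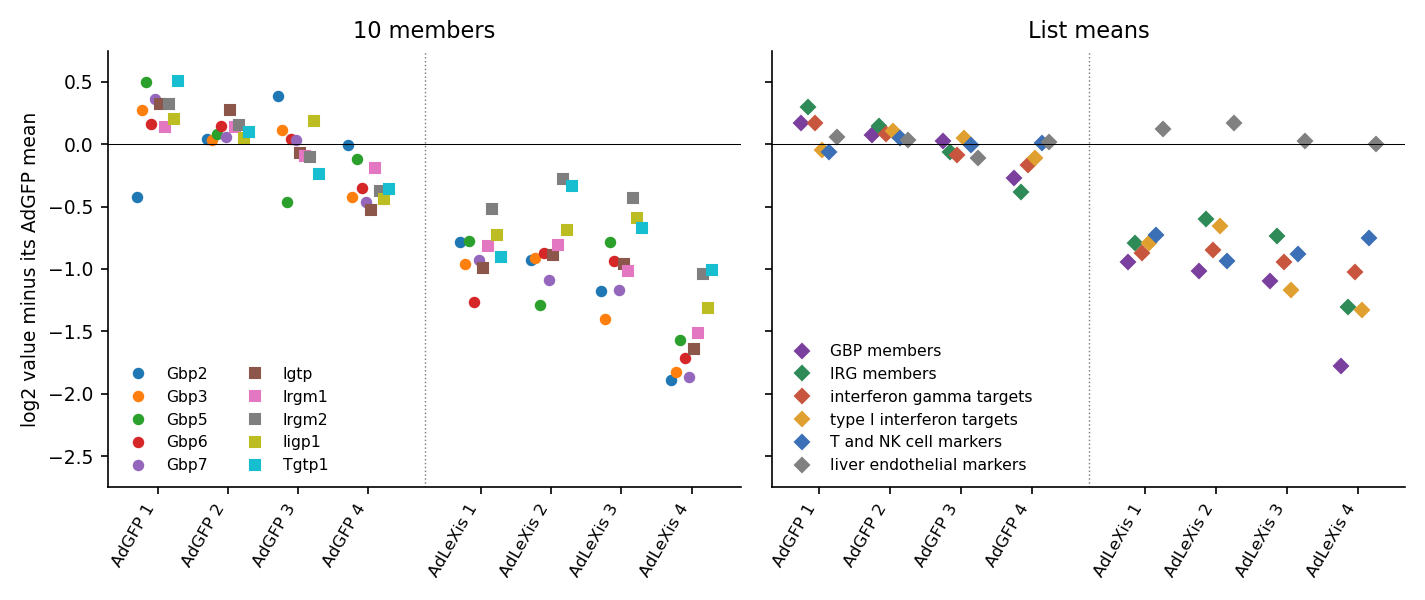
Log2 value minus its AdGFP mean (vertical axis) on each of the 8 arrays, on the left for the 10 members (circles GBPs, squares IRGs) and on the right for the mean of 6 lists. The members sit lowest on AdLeXis 4, where the means of the GBPs and IRGs are 1.77 and 1.30 below their AdGFP means, while the mean of the T and NK cell markers there is at the level of the other AdLeXis arrays.

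Most of the wider families were lower as well. Of 19 other interferon-inducible GTPases tested, 14 fell and 0 rose, with a median of -0.999. The 4 of smallest p were Gbp9 (-1.24, SE 0.13, adjusted p = 0.00131), Gbp11 (-1.28, SE 0.14, adjusted p = 0.00136), Gbp10 (-1.18, SE 0.15, adjusted p = 0.00235) and F830016B08Rik (-1.17, SE 0.16, adjusted p = 0.00294). The first 3 are GBPs, and the last is an IRG. The Gbp10 probe also lists transcripts of the member Gbp6, so its signal cannot be assigned to Gbp10 alone. The lowest value of the list was that of Gbp2b (-1.54). Mx1, a GTPase of the dynamin family induced by type I interferon, fell by 0.68 (SE 0.14, adjusted p = 0.0156). Mx2, of the same list, differed by -0.61 (SE 0.19) without passing (adjusted p = 0.0699 over all kept probes), and its groups overlapped. Irgq, a family member without a clear interferon response, had a difference of -0.09 (SE 0.11, adjusted p = 0.612). Gm4841, an IRG by its synonyms in the gene table and outside the list, was named after its value was seen: its difference of -2.22 (SE 0.34, adjusted p = 0.00436) was larger than that of any member.

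Interferon gamma itself was lower. Ifng, the cytokine made mainly by T and NK cells, read 8.79, 8.39, 8.22 and 8.09 on AdGFP and between 6.80 and 7.05 on the 4 AdLeXis arrays. The groups were far apart relative to their spread, with a fall of 1.46 (SE 0.15, 2.74-fold, adjusted p = 0.00122). AdLeXis 4, the lowest array for all 10 members, was the highest AdLeXis array for Ifng. On the AdGFP arrays Ifng decreased from replicate 1 to 4, and so did the mean of the 10 members (13.10, 12.97, 12.84 and 12.53). Whether Ifng and the members vary together was not tested. The transcripts of the receptor chains did not pass: Ifngr1 had a difference of 0.15 (SE 0.12, adjusted p = 0.417) and Ifngr2 of -0.11 (SE 0.09, adjusted p = 0.423).

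Downstream of the receptor, 4 of the 12 genes tested in the list of the receptor, JAK-STAT and IRF factors fell and 0 rose, with a median of -0.27. Besides Ifng these were Socs1, a feedback inhibitor of JAK kinases (-1.24, SE 0.21, adjusted p = 0.00635), Irf8, an IRF of myeloid cells (-0.67, SE 0.16, adjusted p = 0.0251), and Nlrc5, the transactivator of MHC class I genes (-0.46, SE 0.09, adjusted p = 0.0118). A dimmer Nlrc5 probe differed by -0.31 (SE 0.12) without passing (adjusted p = 0.123 over all kept probes), and its groups overlapped. Irf1, a factor that binds ISREs and is itself induced by interferon gamma, differed by -0.43 (SE 0.13) without passing (adjusted p = 0.0590), although its 4 AdLeXis arrays all lay below the 4 AdGFP arrays. Of the 7 genes tested for the type I receptor and its factors, 3 fell, led by Irf7 (-1.14, SE 0.15, adjusted p = 0.00238), with Usp18 (-0.60, SE 0.17) and Tyk2 (-0.31, SE 0.08). The receptor chains Ifnar1 (-0.19, SE 0.12) and Ifnar2 (-0.17, SE 0.08) did not pass. In 7 of the 19 alternatives only 1 gene of this list passed.

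Targets of interferon that are not GTPases moved in the same direction. Of 20 tested targets typical of interferon gamma, 19 fell and 0 rose, with a median of -0.76. They were led by the T cell chemokine Cxcl9 (-1.84, SE 0.13, adjusted p = 0.000326), the MHC class II invariant chain Cd74 (-1.45, SE 0.15, adjusted p = 0.00117), the immunoproteasome subunit Psmb8 (-1.02, SE 0.12, adjusted p = 0.00184) and the MHC class I gene H2-K1 (-0.58, SE 0.07, adjusted p = 0.00220). Of 22 targets typical of type I interferon, 18 fell and 0 rose, with a median of -0.95. The 4 of smallest p were the RNA sensors and antiviral genes Oas1a (-1.06, SE 0.11), Oasl2 (-1.80, SE 0.22), Zbp1 (-1.33, SE 0.19) and Oas3 (-0.97, SE 0.14), with adjusted p of 0.00105 to 0.00345. Many of these genes answer to both kinds of interferon. Among AdLeXis arrays, the means of the interferon gamma and type I lists were lowest on AdLeXis 4. They lay 0.10 and 0.34 below the AdLeXis mean there. This low position was not particular to interferon genes. The means of the hepatocyte, Kupffer cell and macrophage, and liver endothelial lists were also lowest there, by 0.10, 0.12 and 0.08. Those of the T and NK cell, B cell and neutrophil lists were lowest on AdLeXis 2. AdLeXis 4 also had the fewest spots well above background among AdLeXis arrays (62.6%).

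**Figure D4:**
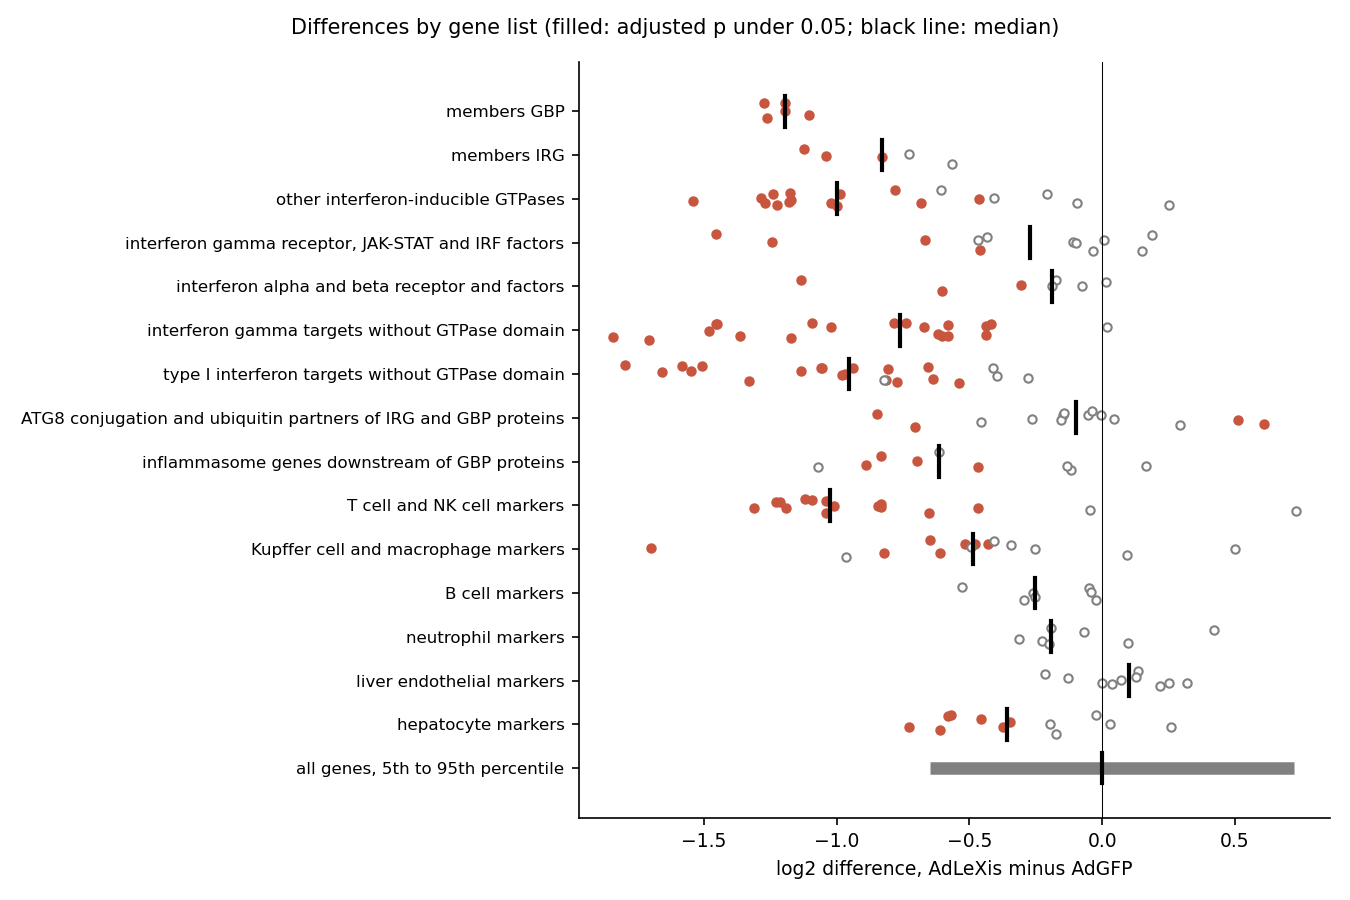
Log2 difference between AdLeXis and AdGFP (horizontal axis) for each gene of 15 lists, filled where the adjusted p was under 0.05, with the median of the list as a black line. The lowest line shows the median of all 23985 genes, -0.00, and their 5th to 95th percentile, -0.65 to 0.72. All 5 GBPs and 4 of the 5 IRGs lie below that range.

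Among the partners with which these GTPases act, the counts differed by list. Of 14 genes of ATG8 conjugation and of the ubiquitin response at vacuoles, 2 fell and 2 rose, with a median of -0.10. Over all genes 8.77% fell and 8.74% rose, so these counts were near that share. Sqstm1, the ubiquitin-binding autophagy receptor p62, fell by 0.85 (SE 0.12, adjusted p = 0.00304), and Lgals3, a lectin that marks broken vacuoles, fell by 0.70 (SE 0.16, adjusted p = 0.0208). Atg12 (0.61, SE 0.12, adjusted p = 0.0102) and Atg7 (0.51, SE 0.11, adjusted p = 0.0167), which act in the conjugation of ATG8 proteins, rose. Of 9 inflammasome genes that act after GBPs, 4 fell and 0 rose, with a median of -0.62. These were Casp4, the mouse gene of caspase-11 (-0.83, SE 0.10, adjusted p = 0.00190), Il1b (-0.89, SE 0.13, adjusted p = 0.00352), Casp1 (-0.70, SE 0.12, adjusted p = 0.00672) and Pycard, the adaptor ASC (-0.47, SE 0.12, adjusted p = 0.0331).

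Markers of T and NK cells were lower too. Of 16 T cell and NK cell markers, 14 fell and 0 rose (at an unadjusted p of 0.05 in limma, 1 was higher), with a median of -1.02, led by Nkg7 (-1.09, SE 0.10), Il2rb (-1.21, SE 0.11), Prf1 (-1.04, SE 0.10) and Cd3d (-1.31, SE 0.13), at adjusted p of 0.000626 to 0.00108. The highest log2 difference of the list was 0.73, which did not pass after adjustment. The summed signal of the list was 21321 to 22134 on AdGFP and 11053 to 11858 on AdLeXis arrays, and 15 of the 16 genes were well above background on all 8 arrays. The remaining gene, the NK cell receptor Ncr1, was so on 2 AdGFP and 4 AdLeXis arrays. Their part in the fall of the GTPases was not tested. Within groups, AdLeXis 4 lay 0.07 above the AdLeXis mean of the T and NK list, and AdGFP 1 0.06 below the AdGFP mean. These 2 values describe arrays within a group and not the difference between groups. Without AdLeXis 4, the difference in the mean of the T and NK list was -0.85, against -0.82 with it.

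Of 14 Kupffer cell and macrophage markers, 7 fell and 0 rose, with a median of -0.49. At an unadjusted p of 0.05 in limma 11 were lower and 1 higher, and 4 to 11 passed over the 19 alternatives. With normexp and quantile normalization 7 passed as lower and 1 as higher, with the trended and robust variance 10 and 1, and without the array AdGFP 4 the counts were 5 and 1. The 4 of smallest p were Ccr2 (-0.82, SE 0.11), Cx3cr1 (-0.61, SE 0.09), Timd4 (-1.70, SE 0.32) and C1qc (-0.65, SE 0.13), at adjusted p of 0.00237 to 0.0118. Clec4f, which is particular to Kupffer cells, had a difference of 0.10 (SE 0.17, adjusted p = 0.754). The list is not limited to Kupffer cells, so its counts do not describe Kupffer cells alone. The summed signal of the list overlapped between groups, with 109233 to 142727 on AdGFP and 89574 to 113824 on AdLeXis arrays, and its part in the fall of the GTPases was not tested. None of the 7 B cell markers, 7 neutrophil markers or 10 liver endothelial markers tested passed in limma (0 of each). At an unadjusted p of 0.05, 1 B cell marker was lower, and 0 neutrophil and 0 endothelial markers differed. Of 12 hepatocyte markers, 7 fell and 0 rose, with a median of -0.36, and this count depended on the scaling: with quantile normalization 1 fell and 1 rose, with a median of 0.00. The GTPases kept their direction under every scaling tried.

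The 5 genes with a symbol whose profile over the 8 arrays was most like the mean profile of the 10 members, each centred on its own mean, were Tgtp2, Cxcl10, Herc6, Slamf8 and Gbp9. The root mean square difference from the members' profile was 0.08 for Tgtp2, an IRG that shares probes with Tgtp1, and 0.11 for Cxcl10, a chemokine that draws T cells. It was 0.12 for Herc6, the ligase of mouse ISG15, 0.13 for Slamf8, a receptor of myeloid cells, and 0.14 for Gbp9, all in log2 units.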

How the data were processed

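RNA of 8 liver samples was measured on one-colour Agilent arrays. The deposited files are scanner output with a linear intensity for every spot. Background and spatial trend had been removed within, but not between, arrays, per the file headers. The headers also give build mm9 and version 11.5.1.1 for the background step. The sample information names Agilent Feature Extraction 11.5.1.11. The series' deposited value table holds the same values.

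Log2 intensity was centred on each array's 75th percentile and the mean over arrays was added back. Controls and 127 to 256 outlier spots an array were dropped, and the mean of a probe's spots was taken. The filter asked for a signal well above background on 4 or more arrays, with 2 or more usable arrays a group, and kept 34440 probes. The brightest kept probe stood for its gene. No spot was saturated (0). Names were updated through RefSeq accessions (assembly GRCm38.p6): an accession matched for 27656 probes and a symbol for 3401, while 24624 stayed under their original name.

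The test was limma's moderated fit (version 3.58.1, lmFit with eBayes, two-sided, R 4.3.3) with group as the only term, and p-values were adjusted by Benjamini-Hochberg over all 23985 genes, threshold 0.05. The fit was tested on simulated data. The number of arrays limits the precision. Alternatives were 3 other scalings, another background correction, 2 other filters, 2 ways of treating several probes, another variance model, a replicate block, leaving out each array, and the median of spots, which was added after the data were seen. Promoters were searched in Python with pandas.

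The members and gene lists were chosen with earlier results of these data known. Named genes are the members, fixed regulators (1 is not reported here), up to 4 genes of smallest p per list and any called against its list, and the 5 genes of most similar profile. Other list genes named for their roles were chosen after their values were seen.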

Additional observations from a re-analysis of the deposited data

Results flagged for a closer look

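For Igtp, the AdLeXis 4 array read 14.91 on the log2 scale, apart from its group: the nearest other AdLeXis array read 15.56, and the gap was 0.861 of the range of the group, above Dixon's 95% critical value for 4 samples. It was the single case among the 20 groups of 4 examined (10 members in 2 groups), and chance gives about 1 such group in 20. The 10 Igtp spots of that array had an SD of 0.05. Without AdLeXis 4, Igtp still fell, by 0.95 (adjusted p = 0.0294).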

How the results depend on the processing

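All 10 members stayed lower in AdLeXis under all 19 alternatives. Gbp2, Gbp3, Gbp5, Gbp6, Gbp7, Igtp and Irgm1 passed in all 19, Iigp1 in 15, Tgtp1 in 7 and Irgm2 in 2. The number of members that passed was 8, with a range of 7 to 10 over the alternatives and of 7 to 9 when each array was left out in turn. Tgtp1 passed, for example, with normexp background correction and quantile normalization (adjusted p = 0.00482), where Irgm2 passed too (adjusted p = 0.0245) and the fall of Gbp2 shrank to -0.79. The mean of both probes brought Gbp5 to -0.57 (adjusted p = 0.0412), since its 2 probes disagree. Every other alternative used the brighter Gbp5 probe alone. Its passes there therefore do not bear on the second probe, which differed by -0.03 (adjusted p = 0.860 over all kept probes). Over all genes, leaving out an array in turn gave 2492 to 4124 calls, the lowest without AdLeXis 4, and 55 to 64 calls among 103 genes of the pathway lists, against 66.

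Replicate numbers are shared by the groups, and each equals the column of the slide in which the array lay. Nothing in the labels pairs the samples, and over all genes, deviations of same-numbered arrays correlated at 0.00 to 0.12. For the members, replicate 4 was the lowest AdGFP array for 8 of 10 and the lowest AdLeXis array for 10 of 10. Whether the members share an effect of slide column or of pairing was not tested. With the replicate number as a block, 3149 genes and 9 members passed, against 4200 and 8; Irgm2 passed there (adjusted p = 0.0390), and the calls of the other 9 members did not change. A block for slide or scan was not possible, since there was 1 of each. The deposited value table equals the scanner values and gives the same results. Some probes of this family match near-identical copies, and the arrays have no spot count from which depth could be read; all member probes kept were well above background.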
